A study of Mus musculus with 6 samples.

Results

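The genes described here encode the proteins of the small nuclear ribonucleoproteins (snRNPs) and of the spliceosome core that carry the prefixes Sf3a, Sf3b, Snrp, Snrnp, Prpf and Lsm. Of the 26027 genes counted, 55 had such a symbol. Sf3b1, Prpf8 and Snrpn were left out by the rule, which leaves 52 genes. The rule used symbols alone and no measured value. By the known place of each protein, 7 form the Sm ring, 6 belong to the U1 snRNP, 10 to the U2 snRNP, 7 to the Lsm2-8 ring of U6, and 7 to the U4/U6, U5 and tri-snRNP particles. Another 5 act in activation and catalysis, 3 belong to the U11/U12 snRNP of the minor spliceosome, and 6 are other Lsm proteins. The remaining member, Snrpert, is annotated as a processed pseudogene of Snrpe. So 51 of the 52 are taken here as protein genes, and all 52 entered the tests.

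The spliceosome removes introns by assembling snRNPs on each new transcript: U1 pairs with the 5′ splice site, U2 with the branch point, and the tri-snRNP of U4, U6 and U5 joins before catalysis. A ring of Sm proteins is loaded on the U1, U2, U4 and U5 RNAs in the cytoplasm, whereas U6 carries a ring of Lsm proteins. In blood progenitors, several splicing factors are mutated in myeloid disease, among them SRSF2, an SR protein that binds exonic sequence and helps recruit these snRNPs.

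RNA came from Lin-/cKit+/eYFP+ bone marrow cells of C57BL/6 mice given tamoxifen, with 3 libraries of genotype Srsf2 P95H/+ and 3 of Srsf2 +/+, called wild type here. Every mouse, wild type included, carried hScl-CreERT, a Cre that tamoxifen activates and that is named for the blood stem and progenitor gene Scl, and R26eYFP, a reporter by which recombined cells were sorted. Wild-type replicate 1 was a female of 54 weeks and wild-type replicates 2 and 3 were males of 32 weeks. P95H/+ replicates 1 and 2 were females and P95H/+ replicate 3 a male, all of 32 weeks. Sex and age place at least 2 mice in each group, but the labels do not say that each library is a separate mouse, so part of the spread behind the p-values may be technical. Only RNA per gene was counted, so that nothing below bears on how introns were spliced.

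Libraries held 10747941 to 23010510 counts, with P95H/+ replicate 3 the lowest, and levels are given in CPM (a gene's count over its library total, scaled up by the same factor in every library). Srsf2 itself stood at 324, 331 and 343 CPM in wild type and at 342, 336 and 315 CPM in P95H/+. The progenitor markers Kit and Cd34 were present, at 476 to 548 and 303 to 407 CPM. Itgam, a myeloid lineage marker, was at 0.0474 CPM or less in all 6, but other mature myeloid markers were present. Ngp stood at 46.5 to 457 CPM, Ltf at 32.5 to 399, S100a8 at 84.0 to 171 and Camp at 13.6 to 105. Cxcr2, Adgre1 and Ly6g were at most 22.4 CPM. The replicate 3 library of either genotype differed from the other 4, so each comparison is given with all 6 libraries and with the 4 of replicates 1 and 2. The summed level of 8 mature neutrophil and monocyte markers was 204 to 615 CPM in wild type and 232.4 to 1126 CPM in P95H/+, highest in P95H/+ replicate 3. The sum of 6 erythroid markers was also highest in that library, at 1139 CPM against 438 to 840 CPM in the others, as was that of 5 B cell markers, at 116 CPM against 46.7 to 83.9 CPM. The sum of 7 T and NK cell markers was at most 11.6 CPM. The part of these cells in the results for replicate 3 was not tested.

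RefSeq promoter sequence (GRCm38.p6) was at hand for 41 of the 52 genes. The hexamer CCGGAA, the core of ETS factor sites, occurred on either strand in the 250 bases before the start of 19 of them (46.3%), against 12.2% of all 27025 promoters and 15.2% of the 17492 of protein-coding genes. TGCGCA, the core of NRF1 sites, occurred in 13 (31.7%), against 6.66% and 8.28%. CCAAT occurred in 15 (36.6%), close to its 34.5% and 36.3% elsewhere, and TATAAA in 3 (7.32%), against 13.0% and 12.4%. The ETS core was found in 7 of the 8 U2 snRNP promoters and 5 of the 6 of the U4/U6, U5 and tri-snRNP group, but in 1 of 5 for U1 and 0 of 3 for U11/U12. A match is a string of letters and not a measured binding site.

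Promoters of 4 genes are shown because they stand at the ends of the results below: Lsm5 and Snrpf varied most over the libraries, Snrnp70 varied least, and Sf3b2 had the highest level per kb of the U2 proteins. They were chosen after these values were seen. Bases that GENCODE annotates as untranslated or coding were trimmed, capitals mark the motifs found, and each runs 5′ to 3′ on the minus strand of GRCm38.p6, at chr6:56704711-56704949, chr10:93589707-93589908, chr7:45395743-45395992 and chr19:5295458-5295707 in this order.
Lsm5: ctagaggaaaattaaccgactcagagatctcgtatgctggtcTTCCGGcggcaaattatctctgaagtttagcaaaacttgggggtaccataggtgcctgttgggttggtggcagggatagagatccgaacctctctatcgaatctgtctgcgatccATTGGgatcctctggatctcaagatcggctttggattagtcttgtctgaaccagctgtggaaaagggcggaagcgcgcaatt
Snrpf: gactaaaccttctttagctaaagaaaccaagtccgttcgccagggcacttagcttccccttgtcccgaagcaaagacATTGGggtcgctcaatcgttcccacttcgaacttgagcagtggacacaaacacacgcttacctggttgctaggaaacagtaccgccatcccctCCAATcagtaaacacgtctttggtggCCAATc
Snrnp70: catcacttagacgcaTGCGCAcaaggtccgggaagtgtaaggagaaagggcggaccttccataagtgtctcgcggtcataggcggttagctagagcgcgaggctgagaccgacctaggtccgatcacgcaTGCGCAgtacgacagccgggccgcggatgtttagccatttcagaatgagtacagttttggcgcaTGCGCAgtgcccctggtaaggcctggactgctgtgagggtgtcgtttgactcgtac
Sf3b2: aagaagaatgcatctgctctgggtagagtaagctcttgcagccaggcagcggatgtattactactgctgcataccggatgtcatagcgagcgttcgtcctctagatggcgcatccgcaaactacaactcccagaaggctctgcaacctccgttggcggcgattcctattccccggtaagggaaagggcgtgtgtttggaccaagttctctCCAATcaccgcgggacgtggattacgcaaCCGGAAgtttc
Lsm5 and Sf3b2 each held 1 ETS core and 1 CCAAT, whereas Snrpf held CCAAT 3 times and Snrnp70 held TGCGCA 3 times. In the stretches shown, the CCAAT nearest the RefSeq start began 54 bases before it in Snrpf and 40 bases before it in Sf3b2. For Snrpf the bases next to that start were trimmed, and motifs in them are not marked.

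The comparison of P95H/+ with wild type asks whether cells with a mutant Srsf2 allele hold different levels of the machinery that Srsf2 works with. With all 6 libraries, none of the 52 genes passed the test, nor did any in 19 other fits, DESeq2 and limma among them. edgeR gave each of them an adjusted p of 0.999986, and none had an unadjusted p under 0.05, while over all 17144 tested genes 0 (0%) passed after adjustment and 361 (2.11%) had an unadjusted p under 0.05, 0.7% with P95H/+ higher and 1.41% with it lower. The median log2 fold change of the 52 was 0.03, beside 0.02 for all tested genes, and 30 of the 52 lay above 0 (57.7%, against 53.1% of all genes). Among the 11023 genes at least as abundant as the lowest member the median was 0.04 and 58.3% lay above 0, so the 52 did not stand above that background. Values ran from -0.33 for Snrpd3 to 0.68 for Sf3a2, and 45 of the 52 lay within 1.2-fold in either direction, against 70.1% of all genes. The sign of the median is not fixed: it was -0.04 when libraries were scaled by their totals alone.

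How far such a result reaches is set by the spread between libraries. With 6 libraries the median SE of a member was 0.30, and the 95% interval of the fold change lay within 2-fold for 33 of the 52 and within 1.5-fold for 5. With the 4 libraries of replicates 1 and 2 the median SE was 0.10, and the intervals lay within 2-fold for all 52 and within 1.5-fold for 50. A 2-fold difference thus lies outside the 4-library interval of every one of the 52, but with 6 libraries the bounds reached -1.64 and 2.14 on the log2 scale. The 4 libraries are those left after replicate 3 was seen to differ, so their intervals may be too narrow. Differences of the size seen were not resolved. Bulk RNA cannot tell fewer cells of a type from less RNA per cell.

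In the 4-library comparison, 144 of 17371 genes passed (0.829%) and again none of the 52, whose smallest adjusted p was 0.135, for Lsm2. An unadjusted p under 0.05 was given to 7 of the 52 (13.5%, against 15.6% of all genes). Of these, 6 had higher values in P95H/+ (6.14% of all genes), namely Lsm2, Lsm5, Prpf31, Sf3b5, Snrpb and Snrpb2, and 1 had lower values (9.44% of all genes), Lsm11. The log2 fold change lay above 0 for 41 of the 52 (78.8%), against 49.6% of all tested genes and 54.5% of the 11020 genes at least as abundant as the lowest member, and its median was 0.12, against -0.003 and 0.02. Groups did not overlap for 20 of the 52 with P95H/+ higher and for 4 with P95H/+ lower, while over all genes these shares were 19.9% and 28.2%, or 48.1% in both directions. No single gene passed the threshold. In the same 4 libraries the summed level of 5 neutrophil precursor markers was 6824 and 7929 CPM in wild type and 9592 and 8559 CPM in P95H/+. That of the 5 B cell markers was 69.8 and 83.9 CPM against 47.1 and 46.7 CPM. The sum of 6 erythroid markers was 525 and 701 CPM against 502 and 438 CPM. For 7 T and NK cell markers it was 11.6 and 7.44 CPM against 4.48 and 4.38 CPM. None of these sums overlapped between the genotypes, whereas those of the other marker lists did. The part of these cells in the result was not tested. Wild-type replicate 1 differs from the other 3 of these libraries in age and wild-type replicate 2 in sex, which cannot be told apart from genotype here.

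**Figure D1:**
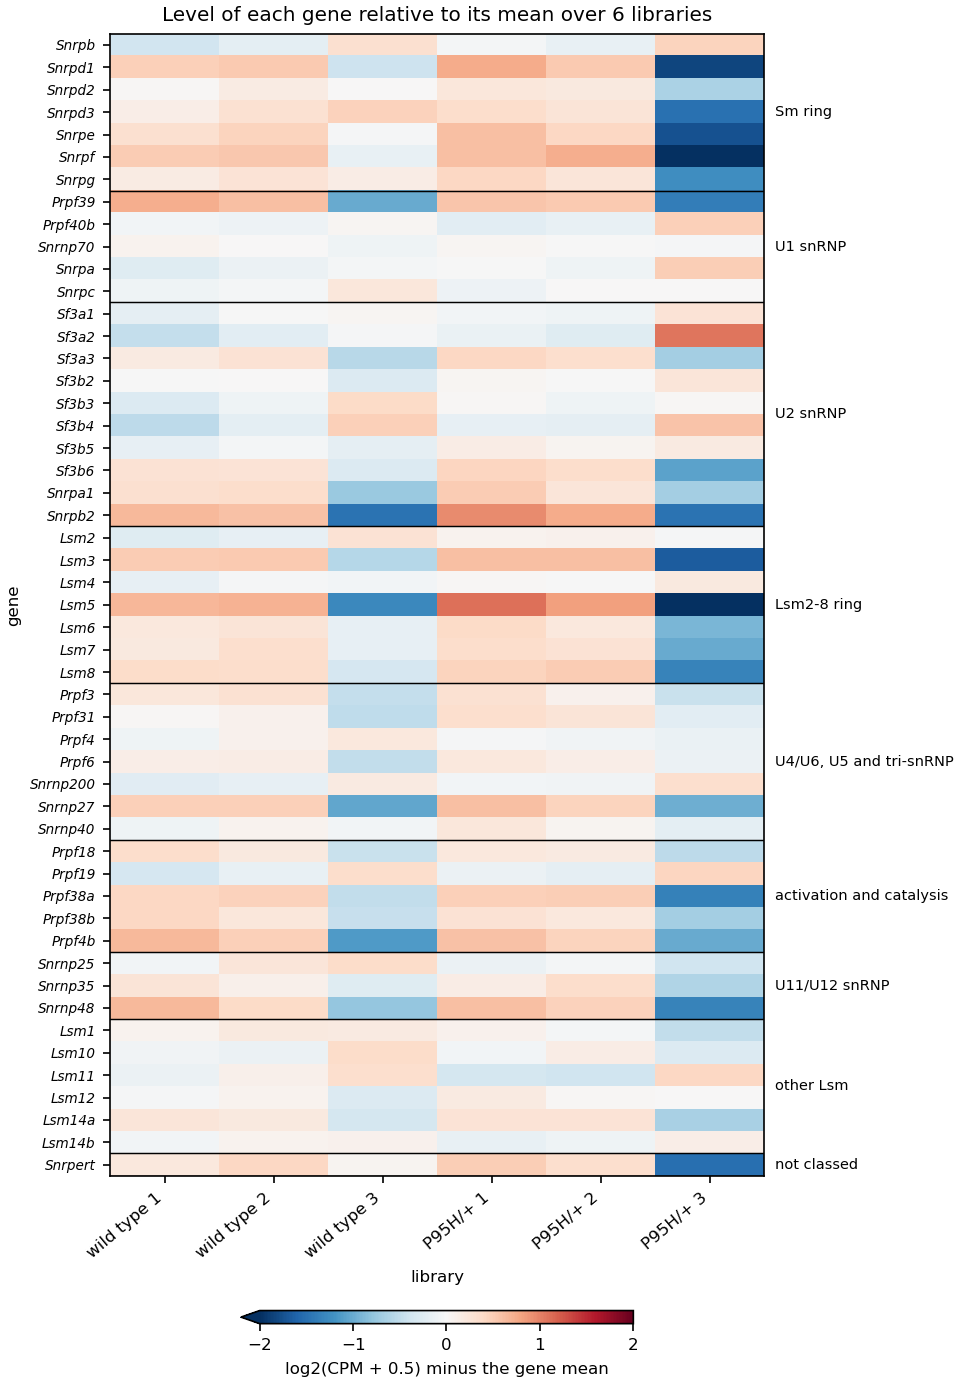
Level of 51 of the 52 genes in the 6 libraries, as log2(CPM + 0.5) minus the gene's mean over the libraries (colour, blue lower and red higher, values under -2 drawn as -2), with genes grouped by role. Wild-type and P95H/+ replicates 1 and 2 look alike, and the blue cells lie mostly in the replicate 3 columns, P95H/+ replicate 3 holding the lowest value of 27 genes.

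Together the 52 genes took 0.552%, 0.571% and 0.509% of all counts in the 3 wild-type libraries and 0.606%, 0.575% and 0.506% in the 3 P95H/+ libraries, by replicate number. The highest sum was that of P95H/+ replicate 1 and the lowest were those of both replicate 3 libraries. Per kb of annotated exon sequence, mean levels ran from 3.06 CPM for Snrnp48 to 126 CPM for Snrpb; per kb of the longest transcript the ends were Prpf40b at 3.98 and Snrpb at 145 CPM. After Snrpb came Lsm4 at 67.5, Snrnp200 and Sf3b2 both at 55.6, and Snrpe at 55.1 CPM per kb.

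Of the U2 snRNP proteins, 9 of 10 had a log2 fold change above 0 with 6 libraries and 10 of 10 with 4, with medians of 0.20 and 0.17. Sf3b5 (ENSMUSG00000078348, mm10 chromosome 10, 13005343 to 13009183, plus strand), a small subunit of the SF3b complex that holds U2 at the branch point, stood at 49.1, 53.7 and 48.8 CPM in wild type and 61.0, 57.3 and 62.4 CPM in P95H/+. All 3 P95H/+ values lay above all 3 wild-type values. Sf3b5 was 1 of 2 members so separated, both with P95H/+ higher, whereas over all genes 7.84% were separated, 1.91% with P95H/+ higher and 5.93% with it lower. Its means were 50.5 ± 2.75 and 60.2 ± 2.64 CPM (SD, n = 3 each), which is 0.33 on the log2 scale (SE 0.18, edgeR adjusted p 0.999986). With 4 libraries the value was 0.23 (SE 0.10, edgeR adjusted p 0.291).

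Sf3a2 (ENSMUSG00000020211, chromosome 10, 80798198 to 80804924, plus strand), the SF3a subunit next to U2 and SF3b, stood at 92.4, 110.5 and 126.8 CPM in wild type and 117.0, 108.1 and 271.1 CPM in P95H/+. The genotypes overlapped, and P95H/+ replicate 3 alone was high, more than 2-fold above every other library. The log2 fold change of 0.68 (SE 0.39) was the highest of the 52 with 6 libraries, and it was 0.18 (SE 0.11) without replicate 3 of both genotypes. Without P95H/+ replicate 3 alone it was 0.09. Plekhj1 overlaps Sf3a2 on the opposite strand, and whether strand was used in counting is not given in the sources used here.

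Sf3b2, a large SF3b subunit, had the highest level per kb of the U2 proteins, at 374, 379 and 314 CPM in wild type and 388, 377 and 445 CPM in P95H/+. The genotypes overlapped, and its log2 fold change was 0.26 (SE 0.20) with 6 libraries and 0.05 (SE 0.08) with 4, and 0.16 and 0.17 without the replicate 3 library of P95H/+ or of wild type. Sf3b4 stood at 67.4, 84.2 and 135 CPM against 86.1, 85.7 and 144 CPM, so that both replicate 3 libraries were the high ones. Snrpb2, the U2B″ protein that binds the U2 RNA stem loop, went the other way, at 70.3, 67.3 and 15.7 CPM in wild type and 86.5, 74.6 and 15.7 CPM in P95H/+. Its replicate 3 values were the 2 lowest and equal to 3 digits between the genotypes. Sf3b5 had the lowest level per kb of this group, at 14.4.

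**Figure D2:**
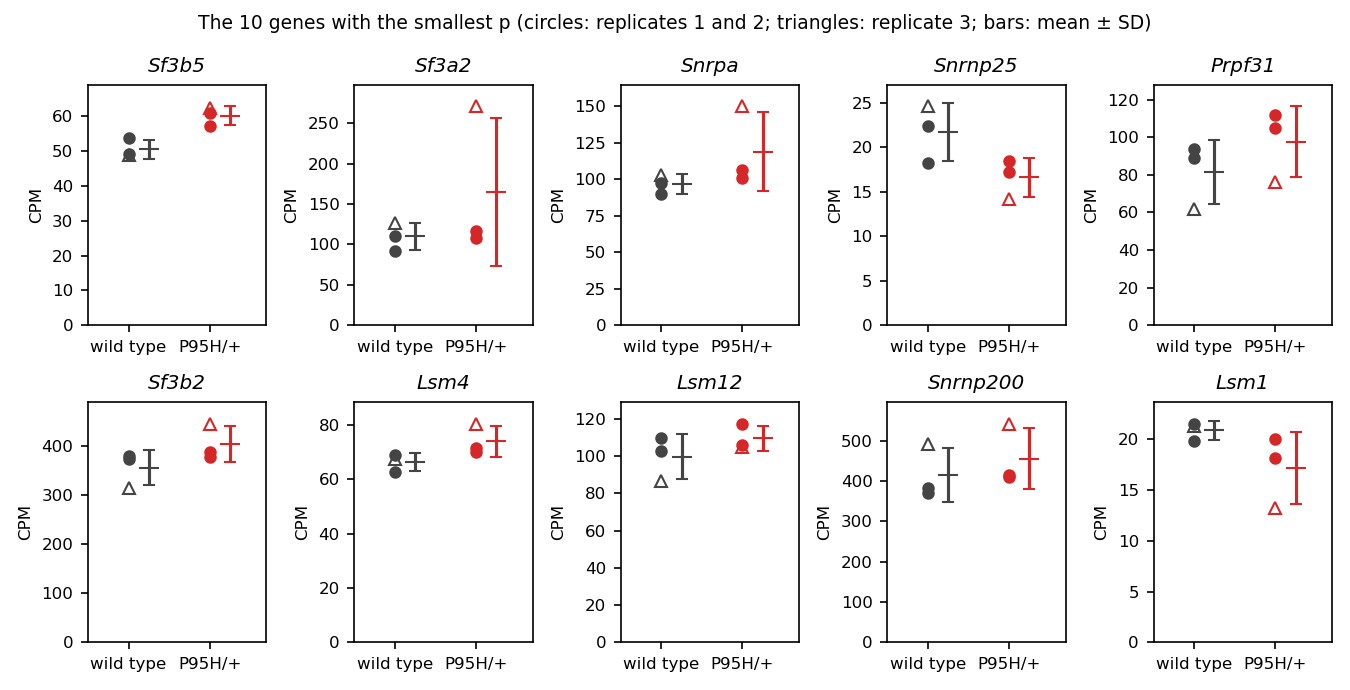
CPM in each library for the 10 genes with the smallest p in the 6-library comparison (circles replicates 1 and 2, triangles replicate 3, bars mean ± SD of 3, axes from 0). Only Sf3b5 and Lsm4 show no overlap between the genotypes, and the P95H/+ triangle of Sf3a2 stands far above the other values.

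For the 6 U1 snRNP genes the median fold change on the log2 scale was 0.14 with 6 libraries and 0.03 with 4. Snrpa, the A protein of the U1 particle, which binds a stem loop of U1 RNA, stood at 89.7, 97.5 and 103 CPM in wild type and 106, 101 and 150 CPM in P95H/+. The groups overlapped narrowly, and P95H/+ replicate 3 was the high library. Its log2 fold change was 0.38 (SE 0.23) with 6 libraries, 0.15 without P95H/+ replicate 3 and 0.17 (SE 0.09) with 4. Snrnp70 (ENSMUSG00000063511, chromosome 7, 45376453 to 45395742, minus strand), the U1-70K protein that SR proteins contact, had the highest level per kb of the group and the smallest spread of all 52, at 345, 330 and 309 CPM against 338, 327 and 322 CPM. Its highest library was 1.12 times its lowest, against a median of 1.87 times for the 52. Prpf39, a U1-associated protein, stood at 106, 97.1 and 31.4 CPM against 94.3, 92.2 and 24.1 CPM, low in both replicate 3 libraries. Prpf40b had the lowest level per kb of the group, at 15.3, 14.9 and 16.3 CPM against 13.7, 14.4 and 22.5 CPM.

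In the Lsm2-8 ring, which binds the 3′ end of U6 RNA, 3 of 7 genes lay above 0 with 6 libraries and 7 of 7 with 4. Lsm4 (ENSMUSG00000031848, chromosome 8, 70673248 to 70678752, plus strand) was the highest per kb and the other member without overlap, at 62.6, 68.8 and 67.4 CPM in wild type and 71.4, 69.9 and 80.4 CPM in P95H/+. The gap between the groups was narrow, and the log2 fold change was 0.23 (SE 0.18) with 6 libraries and 0.13 (SE 0.09) with 4, and 0.14 without P95H/+ replicate 3 alone. Lsm5 (ENSMUSG00000091625, chromosome 6, 56701063 to 56704710, minus strand) varied most of the 52, at 23.3, 23.7 and 5.64 CPM in wild type and 31.7, 26 and 3.26 CPM in P95H/+. Its highest library was 9.73 times its lowest, and with replicates 1 and 2 only this ratio was 1.36. Lsm7 was the lowest per kb, at 18.6, 20.5 and 14.2 CPM against 20.6, 19.8 and 7.72 CPM. Lsm2, with the smallest p of the 4-library comparison, stood at 51.6, 54.7 and 74.9 CPM against 64.6, 65 and 60.3 CPM, so that its order between the genotypes turned in replicate 3.

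Among the U4/U6, U5 and tri-snRNP proteins, 6 of 7 lay above 0 with 6 libraries and 5 of 7 with 4, with medians of 0.14 and 0.08. The median was 0.0035 without wild-type replicate 3, 0.0151 without P95H/+ replicate 1 and 0.22 without P95H/+ replicate 3. Prpf31, a U4/U6 protein needed to form the tri-snRNP, stood at 89.0, 93.7 and 61.9 CPM in wild type and 112, 105 and 76.3 CPM in P95H/+. Each P95H/+ library lay above the wild-type library of the same number, while the groups overlapped through P95H/+ replicate 3. Its log2 fold change was 0.33 (SE 0.25) with 6 libraries and 0.28 (SE 0.09, edgeR adjusted p 0.179) with 4, and it was 0.16 without wild-type replicate 3 and 0.21 without P95H/+ replicate 1. Snrnp200, the helicase that unwinds U4 from U6, stood at 370, 383 and 491 CPM against 414, 411 and 542 CPM. It was again above its same-numbered wild-type library each time, while the groups overlapped. Its log2 fold change was 0.22 (SE 0.22) with 6 libraries and 0.16 (SE 0.08) with 4, but 0.05 without P95H/+ replicate 3, 0.34 without wild-type replicate 3 and 0.14 without wild-type replicate 1. Prpf3 was the lowest per kb, at 62.0, 65.2 and 37.8 CPM against 65.4, 56.2 and 38.4 CPM.

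The 5 genes of activation and catalysis had a median of -0.01 with 6 libraries and with 4, but it was -0.27 without wild-type replicate 3 and 0.19 without P95H/+ replicate 3. Prpf19, a ubiquitin ligase of the activated spliceosome, was the highest per kb, at 214, 243 and 342 CPM against 248, 237 and 362 CPM, and both replicate 3 libraries were high. Prpf38a, which joins before activation, was the lowest, at 68.8, 71.6 and 36.4 CPM against 72.3, 73.1 and 19.9 CPM. Prpf4b, Prpf18 and Prpf38b had log2 fold changes of 0.04, -0.01 and -0.04.

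Of the U11/U12 proteins, which recognise the splice sites of the minor intron class, Snrnp25 stood at 18.2, 22.4 and 24.6 CPM in wild type and 17.3, 18.4 and 14.1 CPM in P95H/+. The groups overlapped in 1 value, 18.4 CPM in P95H/+ against 18.2 CPM in wild type, and the log2 fold change of -0.31 (SE 0.22) became -0.15 (SE 0.14) with 4 libraries. Snrnp48 had the lowest level per kb of exon sequence of all 52 (by the longest transcript Prpf40b and Lsm11 were lower), at 43.5, 36.0 and 15.9 CPM against 41.8, 38.0 and 10.6 CPM. Snrnp35 stood at 5.49 to 11.1 CPM over the 6 libraries.

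Other Lsm proteins act outside the U6 ring. Lsm12 stood at 103, 110 and 86.6 CPM against 117, 106 and 105 CPM, and was the highest of the group per kb. Its log2 difference was 0.21 (SE 0.19) with 6 libraries, and 0.11 with 4 or without wild-type replicate 3 alone. Lsm1, which takes the place of Lsm8 in the cytoplasmic ring of mRNA decay, stood at 19.8, 21.6 and 21.3 CPM against 20.1, 18.2 and 13.2 CPM, with a single P95H/+ value inside the wild-type range. Its log2 difference was -0.21 (SE 0.22) with 6 libraries, -0.07 without P95H/+ replicate 3, -0.36 without P95H/+ replicate 1 and -0.08 with 4 libraries. Lsm11, a subunit of the U7 snRNP that processes histone mRNA ends, stood at 23.6, 27.6 and 32.5 CPM against 20, 19.2 and 34.3 CPM. It was lower in P95H/+ in replicates 1 and 2, with a log2 fold change of -0.36 (SE 0.13, edgeR adjusted p 0.223), and not in replicate 3. Lsm10, its partner in that particle, had a log2 fold change of 0.18 (SE 0.16) in the 4 libraries.

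The Sm ring genes, the shared core of the U1, U2, U4 and U5 particles, had other signs with 6 libraries than with 4. All 7 genes lay above 0 with 4 libraries, with a median of 0.16, and only Snrpb did with 6, where the median was -0.10. Snrpb (ENSMUSG00000027404, chromosome 2, 130171414 to 130179403, minus strand), which encodes the SmB and SmB′ proteins, stood at 186, 213 and 305 CPM in wild type and 236, 219 and 333 CPM in P95H/+, with both replicate 3 libraries high. Snrpf (ENSMUSG00000020018, chromosome 10, 93583029 to 93589706, minus strand), which encodes SmF, stood at 25.1, 25.8 and 15.7 CPM against 26.9, 29.2 and 3.35 CPM. Its P95H/+ replicate 3 value was the lowest by far, 8.73-fold under the highest library. Snrpd3, with the lowest log2 fold change of the 52, stood at 90.5, 102 and 114 CPM against 105, 99.1 and 29.0 CPM, with P95H/+ replicate 3 alone low. Without replicate 3 of both genotypes its log2 fold change was 0.12 (SE 0.10).

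P95H/+ minus wild type within replicate 3, on the log2(CPM + 0.5) scale, was -2.07 for Snrpf, -1.95 for Snrpd3, -1.71 for Snrpe, -1.43 for Snrpd1, -1.38 for Snrpg and -0.64 for Snrpd2, and 0.13 for Snrpb. Means of replicates 1 and 2 differed by 0.09 to 0.19 for the same 7 genes. Since each difference in replicate 3 rests on 1 library per genotype, none has a test. Sm proteins enter snRNPs in a fixed set of 7, yet the RNA shares of the ring moved: per kb, Snrpb made up 26.9% to 28.7% of the summed level in replicates 1 and 2 of either genotype, 42.1% in replicate 3 of wild type and 68.5% in that of P95H/+. The share of Snrpf was 7.45% to 8.79%, then 4.96% and 1.58%. Snrpd2 had the steadiest share of the ring, 7.96% to 9.06% in all 6. Its level was not steady, at 51.3 CPM in P95H/+ replicate 3 against 80.3 to 93.1 CPM in the other libraries.

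**Figure D3:**
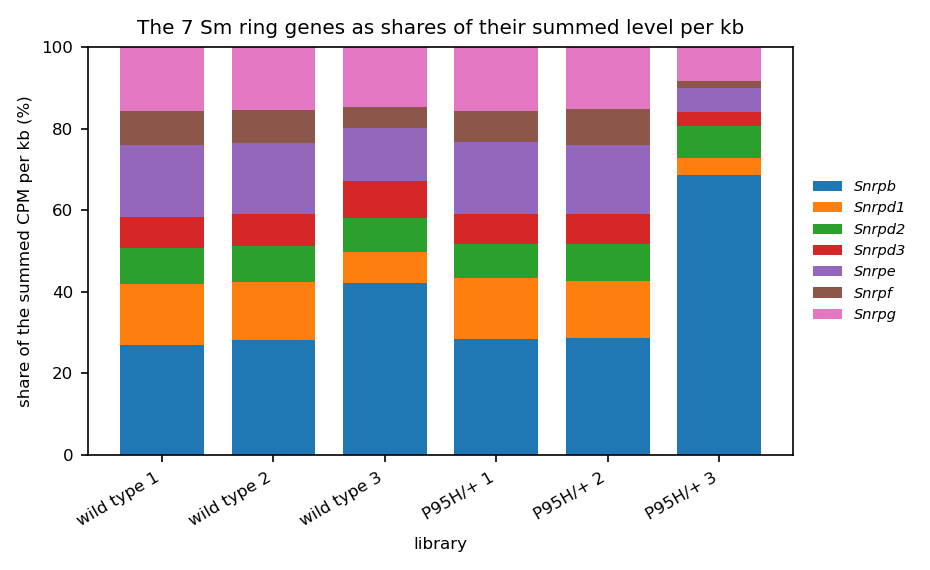
Share of each of the 7 Sm ring genes in their summed level per kb (%, stacked to 100) in each of the 6 libraries. Replicates 1 and 2 of both genotypes have nearly the same split, and Snrpb takes 42.1% in replicate 3 of wild type and 68.5% in that of P95H/+.

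Snrpert followed Snrpe, at 5.48, 6.35 and 4.87 CPM in wild type and 6.74, 5.97 and 1.30 CPM in P95H/+. Its sequence matches that of Snrpe at 99.556% identity, so reads of one could be counted for the other. A near-identical copy elsewhere, sharing at least 95% identity over 150 or more bases, exists for 13 of the 52 genes, Snrpd1, Snrpd2, Snrpf, Snrpg, Lsm5, Lsm7, Sf3b4 and Prpf19 among them, and 15 overlap a gene annotated on the other strand. Their levels are less certain for that reason.

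Over all 52 genes, P95H/+ minus wild type had a median of 0.09 in replicates 1 and 2, above 0 for 40 genes. In replicate 3 the median was -0.17, above 0 for 22. For all 17144 tested genes these medians were -0.03 and -0.08, above 0 for 7577 and 7336 genes. With TMM scaling in place of library totals the replicate 3 median of the 52 was -0.03, above 0 for 26. That of replicates 1 and 2 was then 0.13, above 0 for 41. Over all tested genes TMM scaling gave 0.05 in replicate 3, above 0 for 9237, and 0.006 in replicates 1 and 2, above 0 for 8770. Differences were small in replicates 1 and 2, from -0.37 for Lsm11 to 0.29 for Lsm5, and ran from -2.07 to 1.09 in replicate 3. Of the 14 genes of the Sm and Lsm2-8 rings, 12 were lower in P95H/+ replicate 3 than in wild-type replicate 3, with Snrpb and Lsm4 the others.

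**Figure D4:**
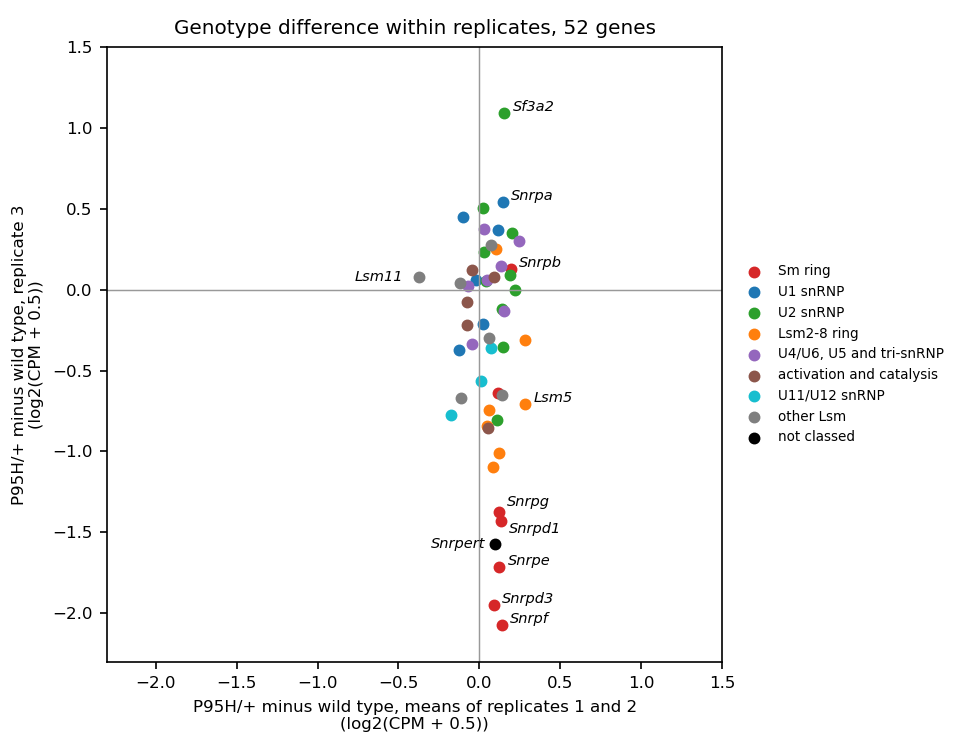
P95H/+ minus wild type in replicate 3 (vertical) against the same difference of the means of replicates 1 and 2 (horizontal), both in log2(CPM + 0.5), for each of the 52 genes coloured by role. Points spread from -2.07 to 1.09 vertically and only from -0.37 to 0.29 horizontally, and 6 of the 7 Sm ring genes lie below 0 in replicate 3.

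The levels of these genes separated replicate 3 from the other libraries more than they separated the genotypes. Replicate 3 minus the mean of replicates 1 and 2 had a median of -0.28 in wild type and -0.68 in P95H/+, against -0.02 and -0.09 for all tested genes, and 44 of the 52 genes moved to the same side in both genotypes, as did 12898 of the 17144 tested genes. The shifts in the 2 genotypes had a Pearson r of 0.75 (Spearman 0.77) over the 52 genes and 0.66 (0.67) over 17078 genes. Both shifts went with the GC content of the longest transcript: r was 0.67 (Spearman 0.63) in wild type and 0.73 (0.70) in P95H/+ over the 52 genes, and 0.59 (0.62) and 0.65 (0.69) over 17078 genes. These are descriptions across genes, which share libraries and are not replicates.

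The 7 members with a GC content of at most 40%, Lsm5, Snrpb2 and Prpf39 among them, had median shifts of -1.61 in wild type and -1.84 in P95H/+, and none of them was higher in replicate 3 of either genotype. For the 1319 tested genes of that class the medians were -0.78 and -1.04. The 8 members above 55% GC, Sf3a2, Lsm4 and Snrnp70 among them, had median shifts of 0.07 and 0.07, against 0.44 and 0.68 for 3421 tested genes. Lsm5 has the lowest GC content of the 52, at 33.9%, and Sf3a2 the highest, at 62.2%. Length went with the difference between the 2 replicate 3 libraries: the 8 members with a longest transcript of at most 1000 bases had a median P95H/+ minus wild type of -1.10 there, against -0.41 for 588 protein-coding genes of that length and 0.07 for the 22 members above 3000 bases. The 8 members ran from -2.07 for Snrpf to 0.25 for Lsm4. They include the pseudogene Snrpert, at -1.57, so they are not a set like the 588 and the gap may be smaller for protein-coding members. The part of GC content, length, depth, RNA quality or sorted cell types in these shifts was not tested.

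**Figure D5:**
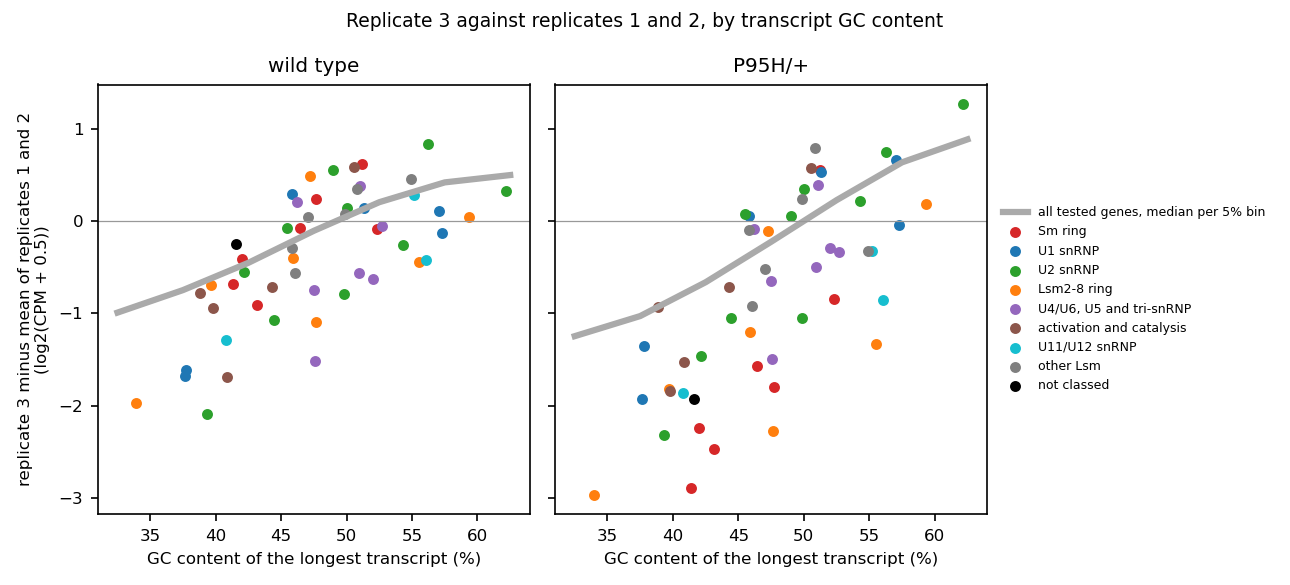
Replicate 3 minus the mean of replicates 1 and 2 (log2(CPM + 0.5)) against the GC content of the longest transcript (%), in wild type and in P95H/+, for the 52 genes (points coloured by role) and as the median of all tested genes per 5% bin (grey line). Both rise with GC content, and most Sm ring points lie below the line in P95H/+, down to -2.89 for Snrpf.

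Leaving those libraries out, the 52 genes were even between libraries. The highest of replicates 1 and 2 of both genotypes was under 1.2 times the lowest for 34 of the 52, with a median ratio of 1.16 and a highest ratio of 1.44, for Lsm11. With all 6 libraries the median ratio was 1.87, and 16 of the 52 exceeded 3. The 6-library median over all tested genes without a 0 in any library was 2.00. That set includes genes less abundant than any of the 52, so the medians are not of like sets.

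The rest of the machinery was read from 8 lists of 82 further genes, of which 81 were counted and tested. None passed the test in either direction (edgeR smallest adjusted p 0.999986), and none had an unadjusted p under 0.05, beside 2.11% of all genes. With 6 libraries 56 of 81 lay above 0 with a median of 0.08. Of all genes 53.1% lay above 0, and of those at least as abundant as the lowest member 58.3%, with medians of 0.02 and 0.04. With 4 libraries again 0 passed, 9 of 81 had an unadjusted p under 0.05, beside 15.6% of all genes, and 63 lay above 0, beside 49.6% of all genes. Among genes at least as abundant as the lowest member these shares were 17.4% and 54.5%. All 12 U2-associated and branch point factors lay above 0 in both comparisons, Sf1, the branch point binding protein, at 0.30 (SE 0.21) and Cherp at 0.36 (SE 0.33) with 6 libraries. Of the 14 tri-snRNP and U5 genes outside the naming rule, Txnl4a, a small U5 protein, stood at 23.6, 26.1 and 23.9 CPM in wild type and 34.9, 33.1 and 24.0 CPM in P95H/+. Its log2 fold change was 0.39 (SE 0.21) with 6 libraries and 0.48 (SE 0.11, edgeR adjusted p 0.0827) with 4, so that it was higher in replicates 1 and 2 and level with the wild type in replicate 3. Eftud2, the U5 GTPase, had 0.28 (SE 0.21).

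Of the 12 genes that assemble the Sm ring, 7 lay above 0 with 6 libraries and 11 with 4. Smn1, the core of the SMN complex, had a log2 fold change of 0.23 (SE 0.20) with 6 libraries and 0.23 (SE 0.11) with 4, and Prmt5, the methyltransferase of Sm proteins, 0.22 (SE 0.20) and 0.28 (SE 0.09). Of 5 U1-associated genes, Tia1 stood at 117, 105 and 69.5 CPM against 80.9, 90.9 and 50.9 CPM and Luc7l at 161, 170 and 130 CPM against 142, 141 and 92.7 CPM, with log2 fold changes of -0.33 (SE 0.29) and -0.23 (SE 0.23). Both were lower in each P95H/+ library than in the wild-type library of the same number. In the other lists the genes of smallest p were Isy1 (0.32, SE 0.22) and Ctnnbl1 (0.25, SE 0.22) of the Prp19 complex and related proteins, the helicases Dhx16 (0.33, SE 0.25) and Dhx38 (0.23, SE 0.18), Zmat5 (-0.11, SE 0.23) and Pdcd7 (0.12, SE 0.26) of the minor spliceosome, and Ints9 (0.34, SE 0.22) and Ints1 (0.36, SE 0.48) of the Integrator complex that trims snRNA ends. These values are log2 fold changes with 6 libraries.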

How the data were processed

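Total RNA depleted of ribosomal RNA was made into stranded paired-end libraries, per the labels' protocols. The submitters' processing notes name the build mm10 and, without settings, STAR 2.5.3a, featureCounts (Subread 1.5.1), Trim Galore with cutadapt, Picard 1.96, limma and edgeR. The authors deposited raw counts per gene and 2 tables of CPM. The deposited CPM equalled counts over library totals within 5e-04, the filtered table having 15466 genes, and all results start from the counts.

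The 52 genes, their roles, the 8 lists and the tests were chosen with earlier results of these data known. Genotypes were compared over all genes with edgeR 4.0.16 in R 4.3.3 (TMM, filterByExpr, robust quasi-likelihood F test, two-sided, Benjamini-Hochberg adjustment, threshold 0.05), on 6 libraries and on 4. An exact permutation of 3 against 3 cannot go below p = 0.1 for a single gene. Alternatives were 19 other fits, with DESeq2 1.42.0 and limma 3.58.1 among them. Named genes were the 10 of smallest p, the highest and lowest per kb in each role, the 4 with the largest shift of replicate 3 in each direction among those of at least 5 CPM, and the 2 of smallest p in each list. Others named were chosen after their values were seen. The values of 1 gene are not reported here, and it is counted only in totals. Lengths, coordinates and GC content came from GENCODE M21 (mm10), which holds 25878 of the 26027 identifiers, and promoters from RefSeq. Replicate differences used a pseudocount of 0.5.

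The replicate numbers were treated as pairs because deviations from the group means correlated above 0.1 for each number (0.372, 0.348 and 0.613). However, wild-type replicate 1 with P95H/+ replicate 2 gave 0.463 and wild-type replicate 2 with P95H/+ replicate 1 gave 0.386. Both lie above the values of numbers 1 and 2. Deviations add up to 0 within a group, so a replicate 3 shift alone can make numbers 1 and 2 correlate. The values thus do not show that numbers 1 and 2 are pairs, and comparing their same-numbered libraries rests on the numbering alone. Tested on simulated counts, 6 libraries recovered 6.12% of 2-fold and 67.3% of 4-fold changes, with 2 false calls among 74, and 4 libraries 59.6% and 93.8%, with 24 false calls among 173. Each gene was drawn independently, so a replicate 3 shift shared by many genes was not simulated. Some of the 144 genes that passed with 4 libraries may thus be false calls.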

Additional observations from a re-analysis of the deposited data

How the results depend on the processing

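In all 20 fits 0 of the 52 genes passed the adjusted threshold, and the median log2 fold change of the 52 ran from -0.18 with sex in the model to 0.21 without P95H/+ replicate 3. The Sm ring median ran from -0.75 with sex in the model to 0.20 without P95H/+ replicate 3, and was 0.16 without both replicate 3 libraries. Among all genes 8 passed with DESeq2, 97 with limma voom with quality weights, 1 with the replicate block, 1 with the replicate block and GC correction, 144 without both replicate 3 libraries, and 0 to 1 when 1 library was left out (1 without wild-type replicate 3). Of the 52, an unadjusted p under 0.05 was reached by 2 with quality weights, 2 with sex in the model, 2 with the replicate block (Prpf31 and Sf3b5), 4 with the block and GC correction, 1 with GC correction alone and 7 without both replicate 3 libraries. The block changed no other call. With TMM scaling, 3 of the 52 rather than 2 had groups that did not overlap, Snrpa being added. The U1 median of 0.14 was 0.093 with upper-quartile scaling, 0.0604 with library totals, 0.108 with voom, 0.034 with quality weights, 0.0677 with sex, 0.0918 with GC correction, 0.0926 with both the block and GC correction and 0.032 without both replicate 3 libraries, and 0.0354 to 0.177 when 1 library was left out. The U2 median of 0.20 was 0.12 with library totals and 0.10 to 0.31 when 1 library was left out. The causes were not tested. With the longest transcript in place of all exons, the gene lowest per kb was Lsm8 in the U6 ring, Prpf4 in the tri-snRNP group and Prpf18 in activation, and the highest were Prpf38b in activation and Lsm14a among other Lsm genes. Over all 52 the lowest per kb was then Prpf40b, followed by Lsm11 and Snrnp48. The lowest mean level was that of Snrpert, with 1.30 to 6.74 CPM behind its values.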
